A study of Rattus norvegicus with 18 samples.

Results

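The genes described here encode proteins that build or maintain the photoreceptor outer segment, the stack of membrane discs in which rods and cones capture light. They were chosen by name from a list of 10 symbols, by a rule that names no measured value. Rows were found for 9 of the 10 in both tissues, out of 32285 genes in the retina table and 32552 genes in the RPE/choroid table. These are Rom1 (ENSRNOG00000019858), Prom1 (ENSRNOG00000003098), Cdhr1 (ENSRNOG00000013330), Rp1 (ENSRNOG00000008807), Tulp1 (ENSRNOG00000000507), Reep6 (ENSRNOG00000033262), Fscn2 (ENSRNOG00000036700), Abca4 (ENSRNOG00000012892) and Impg1 (ENSRNOG00000012479). Prph2 was not analysed here.

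The study asked what aging and an oral purine derivative, 8-aminoguanine (8-AG), do to the eye of the Fischer 344 rat, a laboratory strain used to study aging. Bulk RNA-seq was performed on 9 retina libraries and 9 libraries of RPE/choroid, the retinal pigment epithelium together with the vascular layer behind it. Each tissue had 3 libraries from young rats of 4 months, 3 from untreated aged rats of 24 months and 3 from 8-AG aged rats, which were 24 months old and had drunk 8-AG at 5 mg/kg/day for 8 weeks from 22 months of age. The age of the young rats is that of the labels, and the study's figure legends give a slightly younger one. All rats were female, and nothing states that the 3 libraries of a group came from 3 animals, so the p-values below measure the spread between libraries, which may be technical.

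A photoreceptor renews its outer segment throughout life. New discs form at the base beside the connecting cilium, old discs are shed at the tip and engulfed by the RPE, and every disc protein must be made in the inner segment and carried through the cilium. In this background, Rom1 is a tetraspanin of the disc rim, Prom1 and Cdhr1 sit where new discs evaginate, Rp1 binds the microtubules of the axoneme, Tulp1 and Reep6 act in protein transport towards the outer segment, Fscn2 bundles actin, Abca4 moves retinoid across the disc membrane, and Impg1 is a proteoglycan of the matrix around the outer segments. Mutations in human versions of most of these genes are known from inherited retinal dystrophies.

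To show the sequence in front of these genes, the 250 bases upstream of the annotated start were taken from RefSeq (build GRCr8, not the Rnor_6.0 build in the submitters' processing notes). A promoter was matched for 8 of the 9 genes, all but Rp1, with 9 promoters in all because Prom1 has a pair of starts. The 3 printed here belong to the gene with the largest decrease with age in retina (Reep6), the only one that increased (Fscn2) and the only one with a Crx-type motif (Abca4). Letters are 5′ to 3′ on the strand of the gene, and capitals mark the match to that motif.

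Reep6, chr7:10031272-10031521, minus strand: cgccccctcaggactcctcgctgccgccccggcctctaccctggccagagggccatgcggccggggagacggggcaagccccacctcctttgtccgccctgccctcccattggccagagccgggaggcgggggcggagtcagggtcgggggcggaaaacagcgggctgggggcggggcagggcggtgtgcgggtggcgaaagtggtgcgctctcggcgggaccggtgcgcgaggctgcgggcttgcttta
Fscn2, chr10:106132894-106133143, plus strand: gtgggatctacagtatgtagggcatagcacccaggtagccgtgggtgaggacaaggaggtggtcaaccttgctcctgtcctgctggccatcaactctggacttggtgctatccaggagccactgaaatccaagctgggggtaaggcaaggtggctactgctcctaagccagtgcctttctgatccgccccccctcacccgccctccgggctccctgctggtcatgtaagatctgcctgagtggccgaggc
Abca4, chr2:212849235-212849484, plus strand: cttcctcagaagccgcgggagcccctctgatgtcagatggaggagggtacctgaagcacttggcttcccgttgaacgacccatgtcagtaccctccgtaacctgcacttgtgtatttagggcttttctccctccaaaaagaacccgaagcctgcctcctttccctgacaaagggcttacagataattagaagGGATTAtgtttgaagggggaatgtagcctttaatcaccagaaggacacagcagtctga

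That motif is TAATCC on either strand (GGATTA on the other), the letters recognised by the photoreceptor homeobox factor Crx. It was in 1 of the 9 promoters, that of Abca4, where GGATTA lies 58 to 53 bases upstream of the start. Over all 33469 promoters of the same length, 6.34% held it. TGCTGA on either strand, a half-site of the rod factor Nrl, was in 0 of the 9 promoters and in 15.1% of all promoters. A match describes these letters in this window and is not evidence of binding.

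Retina libraries held 12283458 to 15644346 counts and RPE/choroid libraries 28573828 to 48203050. Levels are given as CPM, the counts of a gene scaled by TMM to libraries of equal size within a tissue, so they compare libraries of one tissue for one gene. CPM is not corrected for transcript length, and levels of different genes were therefore not ranked. The retina libraries carried a list of 13 rod markers at a summed 34820 to 60490 CPM. The RPE/choroid libraries carried the RPE marker list at a summed 5294 to 19130 CPM, but also the rod list at 603 to 54230 CPM. Retina libraries differed in lens transcripts, with a summed 2741, 6015 and 146 CPM in young libraries 1 to 3, 17.0 to 23.9 CPM in the aged libraries, and 1698, 19.4 and 22.0 CPM in 8-AG aged libraries 1 to 3. All 3 of the 8-AG aged retina libraries are labelled total RNA and the other 15 libraries polyA RNA, although the protocol names poly-A libraries for retina, so treatment and this label cannot be told apart there. In bulk tissue, fewer photoreceptors and less RNA per photoreceptor cannot be told apart.

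In aged compared with young retina, 8 of the 9 genes fell and Fscn2 rose, each with an adjusted p under 0.05 in edgeR's quasi-likelihood test and with no overlap between the groups. Reep6 fell most, to 44.2% of the young mean, and Prom1 least, to 83.8%. Among all 14588 genes tested, 7.26% were called lower and 7.29% higher. Complete separation of the groups was found for 17.5% of all genes in the lower direction and again 17.5% in the higher. The median log2 fold change was -0.43 over the 9 genes and 0.00 over all genes tested.

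Rom1, the disc-rim tetraspanin, was at 1556, 1448 and 1403 CPM in young retina against 795, 808 and 945 CPM in aged retina. All young libraries were above all aged ones. Its log2 fold change was -0.79 (SE 0.08, adjusted p = 0.000307). Abca4, the retinoid transporter of the same disc membranes, went from 1302, 1314 and 1432 CPM to 928, 1035 and 1111 CPM, a log2 fold change of -0.39 (SE 0.07, adjusted p = 0.00644).

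Of the genes at the base of the outer segment, Cdhr1, a protocadherin, was at 2800, 2758 and 2972 CPM in young retina and 1807, 1909 and 2032 CPM in aged retina. The groups were well apart, with a log2 fold change of -0.57 (SE 0.06, adjusted p = 0.000493). Prom1, which encodes prominin 1, was at 466, 461 and 503 CPM in young and 393, 397 and 409 CPM in aged libraries. Its decrease was the smallest of the 8, with a log2 fold change of -0.25 (SE 0.06, adjusted p = 0.0154). It missed the threshold in 4 alternative fits, with log2 fold changes of -0.32 with young library 3 as the only young one (adjusted p = 0.111), -0.27 without young library 1, -0.22 without young library 3 and -0.14 without TMM factors.

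Rp1, which helps to align and stack discs along the axoneme, was at 3571, 3480 and 3859 CPM in young libraries against 2475, 1985 and 2423 CPM in aged libraries. The aged libraries spread more than the young ones but stayed below them. The log2 fold change was -0.66 (SE 0.09, adjusted p = 0.00124).

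Reep6 is an endoplasmic reticulum protein needed for vesicle traffic in rods. It was at 1353, 1269 and 1237 CPM in young libraries and 521, 554 and 629 CPM in aged libraries. All aged values were far below every young value. The log2 fold change was -1.18 (SE 0.08, adjusted p = 6.29e-05). Tulp1, a tubby-like protein of the inner segment and cilium, was at 686, 721 and 708 CPM in young and 523, 513 and 574 CPM in aged retina. Its groups were separate, with a log2 fold change of -0.39 (SE 0.06, adjusted p = 0.00297).

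Impg1 was at 365, 378 and 389 CPM in young retina and 276, 262 and 299 CPM in aged retina, with a log2 fold change of -0.43 (SE 0.06, adjusted p = 0.00202). Impg2, which encodes the other proteoglycan of this matrix and is none of the 9 genes, averaged 1234 CPM in the young and 1193 CPM in the aged libraries, with overlap between the groups (log2 fold change -0.05, SE 0.06, adjusted p = 0.645). It was singled out after its values were seen.

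Fscn2, the actin-bundling fascin of photoreceptors, moved the other way. It was at 57.4, 57.0 and 57.6 CPM in young retina and 90.7, 126 and 111 CPM in the aged libraries. The young libraries were nearly equal and the aged ones all higher, with a log2 fold change of 0.94 (SE 0.11, adjusted p = 0.000979). The expected counts of Fscn2 were not whole numbers in 9 of 9 retina libraries, so some of its reads were shared out between this gene and another place in the annotation, and its level is less certain for that. The same was seen in 2 of 9 libraries for Reep6 and Impg1 and in none for the other 6 genes.

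**Figure D1:**
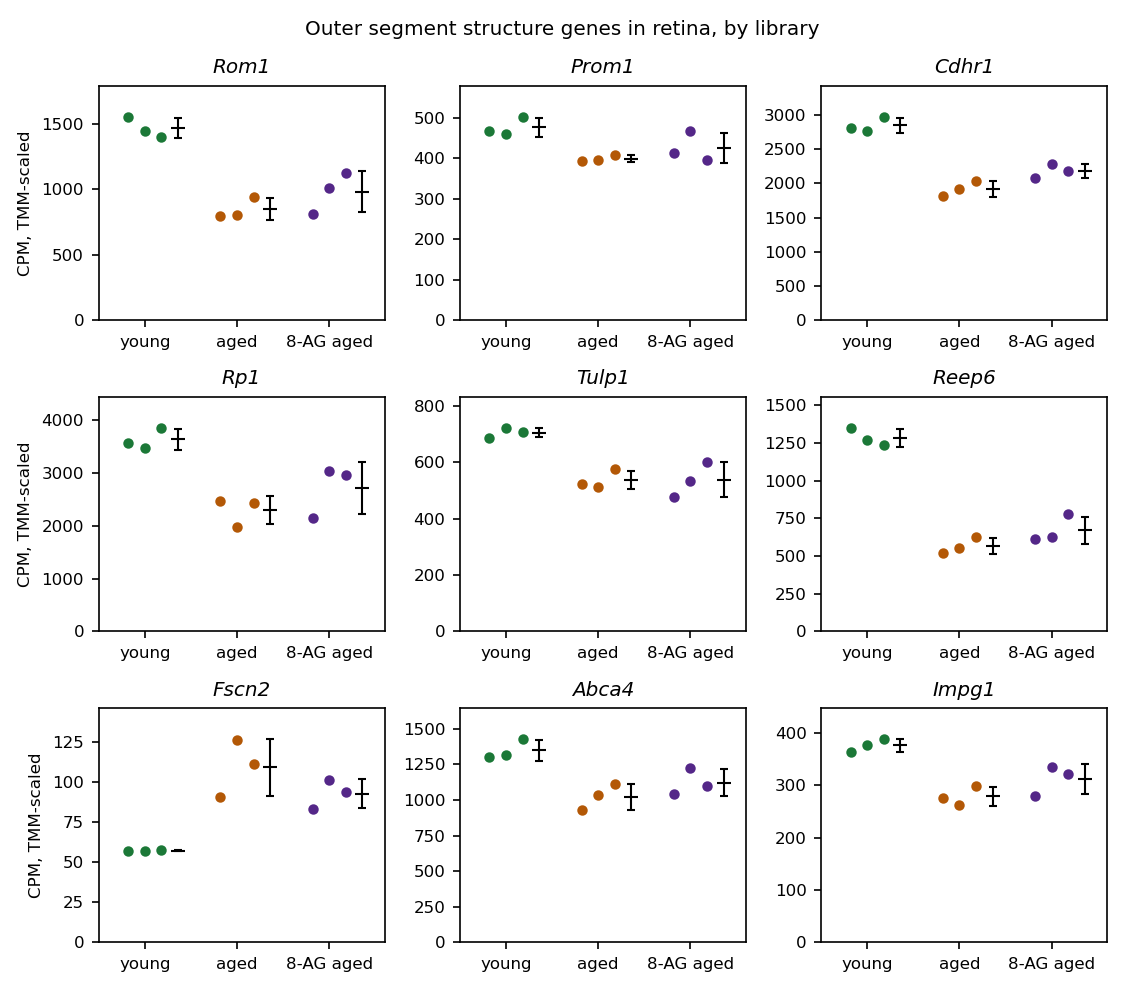
CPM of each of the 9 genes (y axis, from 0, one panel per gene) in the 9 retina libraries, with 3 points each for young, aged and 8-AG aged rats and the mean ± SD of each group beside them. In 8 panels the 3 young points lie above all aged points, and in the Fscn2 panel they lie below, at 57.0 to 57.6 CPM.

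The study called a gene changed at a fold over 1.5 with P under 0.05. Applied to the fits made here, with P unadjusted, this rule gave 4 of the 9 genes. Rom1, Rp1 and Reep6 were lower, as were 2.39% of all genes, and Fscn2 was higher, as were 6.45%. For this comparison the study reported more genes lower than higher, the reverse of these shares. The other 5 fell by less than that fold. The lowest retina count of any of the 9 genes was 745 (Fscn2). Without TMM factors, the median over all genes moved from 0.00 to 0.12 and the share of called genes that were higher from 50.1% to 81.2%. All 9 genes kept their direction in that fit, with Reep6 at -1.06 and Prom1 at -0.14. With young libraries 1 and 2, which hold the most lens transcripts, left out together, 6 of the 9 genes were called. That fit has 1 young library, which is assumed to vary like the aged ones, and calls can be lost for that alone. The fold changes stayed close, with a median of -0.47, and the genes that missed the threshold were Prom1 (-0.32), Tulp1 (-0.39) and Abca4 (-0.47). All 9 genes had an unadjusted p under 0.05 there.

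Rod transcripts other than the 9 genes fell with age as well. The list of 13 rod markers, mostly phototransduction genes, summed to 55660 to 60490 CPM in young, 34820 to 39610 CPM in aged and 35730 to 46850 CPM in 8-AG aged retina, and 10 of the 13 were called lower and 0 higher in aged retina. The cone list of 9 genes summed to 429.5 to 465 CPM in young, 470 to 534 CPM in aged and 417 to 532 CPM in 8-AG aged retina, with 4 genes called lower and 1 higher in aged retina. The RPE marker list summed to 24.8 to 140 CPM in young, 80.3 to 206 CPM in aged and 166 to 348 CPM in 8-AG aged retina. The list of 5 Müller glia markers was also lower, at 5365 to 5676 CPM in young, 4700 to 4949 CPM in aged and 4661 to 5021 CPM in 8-AG aged retina, and in aged retina 2 of the 5 were called lower and 1 higher. The 6 bipolar cell markers summed to 992 to 1098 CPM in young and 792 to 1118 CPM in aged retina, with 0 called lower and 1 higher in edgeR. In 8-AG aged retina they summed to 668 to 894 CPM, below every young library, with 2 called lower and 1 higher against young retina and, against aged retina, 0 called and 1 lower at an unadjusted p under 0.05. The 3 endothelial markers found summed to 586 to 662 CPM in young, 474 to 630 CPM in aged and 477 to 591 CPM in 8-AG aged retina, with 0 called lower and 1 higher in aged retina. What part these shifts in cell markers have in the changes of the 9 genes was not tested.

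To see which of the 9 genes moved with the rod list and which did not, each was expressed per 1000 CPM of the rod list in the same library. Summed, the 9 genes stood at 201 to 214 in young, 209 to 224 in aged and 204 to 226 in 8-AG aged retina. The ratio of the sums thus changed little, while both sums were lower in aged than in young retina. Genes with high CPM weigh most in this ratio, and single genes moved both ways, as given below. Rom1 was at 23.2 to 26.0 in young and 22.2 to 23.9 in aged retina, and Rp1 at 59.0 to 63.8 and 54.6 to 71.1, with overlap in both cases.

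Reep6 was lower in aged retina also relative to the sum of the rod list. It was at 22.4, 22.8 and 20.4 per 1000 rod CPM in young retina and 14.97, 15.2 and 15.9 in the aged ones, with no overlap. Of all genes, 0.535% were lower without overlap on this scale. In 8-AG aged retina Reep6 was at 17.1, 14.7 and 16.6, again below every young library, as were 0.688% of all genes. Single rod markers had log2 fold changes of -1.18 to -0.06 in aged against young retina, where Reep6 was at -1.18. The fall of Reep6 was thus beyond that of the summed list but not beyond that of every rod marker.

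Fscn2 was at 0.949, 1.03 and 0.952 per 1000 rod CPM in young retina, 2.61, 3.47 and 2.81 in aged retina and 2.33, 2.38 and 2.01 in 8-AG aged retina. Prom1, Cdhr1, Tulp1, Abca4 and Impg1 were also higher without overlap in aged than in young retina on this scale, 6 genes with Fscn2. Of all genes, 85.8% were higher in this way, since the list they are divided by fell, a larger share than the 6 of 9 here. Against young retina, 8-AG aged retina had 3 such genes (Prom1, Fscn2 and Impg1), where the share of all genes was 70.3%.

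**Figure D2:**
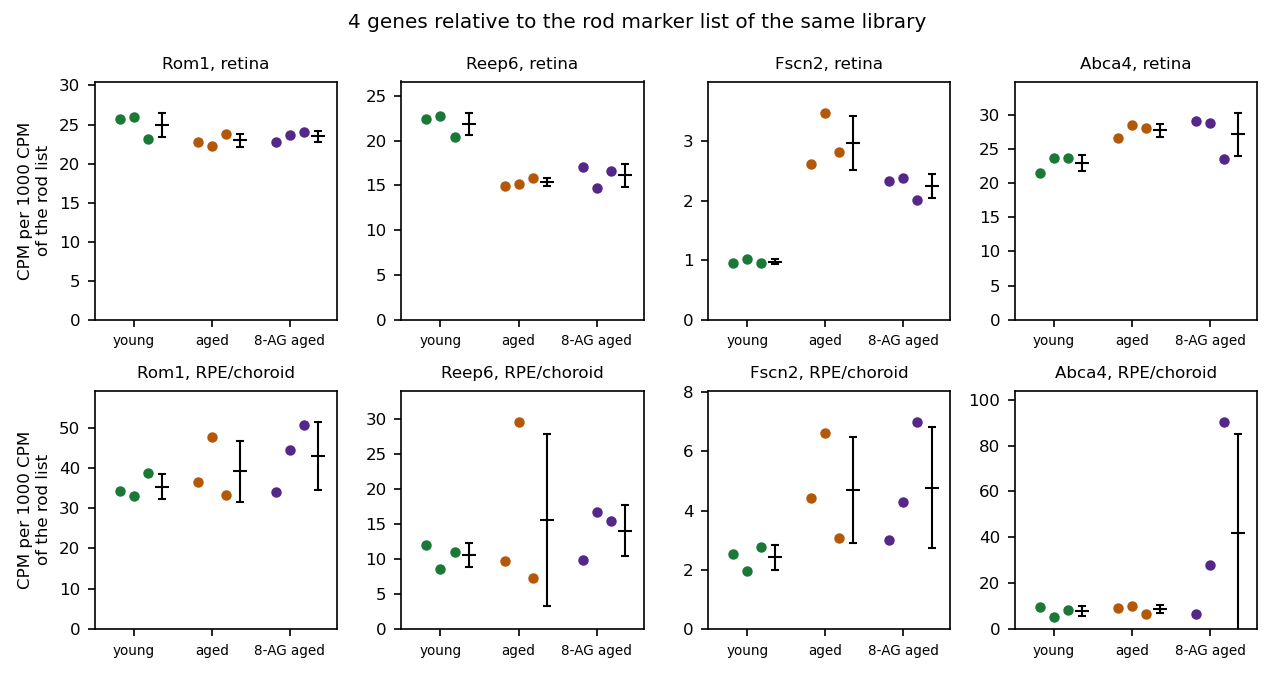
CPM of Rom1, Reep6, Fscn2 and Abca4 per 1000 CPM of the 13-gene rod list of the same library (y axes, from 0), in retina (top) and RPE/choroid (bottom), with 3 points for each group and the mean ± SD beside them. Axes end at 0, so the lower bar of Abca4 in 8-AG aged RPE/choroid is cut. In retina Rom1 overlaps between groups, Reep6 is highest in the young libraries and Fscn2 lowest.

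In 8-AG aged compared with untreated aged retina, none of the 9 genes passed the adjusted threshold, in edgeR or in DESeq2. Among all 14631 genes tested, 0.0205% did (3 genes). At an unadjusted p under 0.05 there were 2 of the 9, Cdhr1 and Reep6, beside 3.67% of all genes. That count was 5 without 8-AG aged library 1, 0 without aged library 2 or without 8-AG aged library 3, and 4 with the replicate block. The share of all genes in those fits is not given, so these counts cannot be set against it. DESeq2 called 18 genes, none of them among the 9. The estimates lay above 0 for 8 of the 9 genes and for 7175 of all 14631, that of Fscn2 lay below 0, and the median log2 fold change was 0.16 where all genes gave 0.00.

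Cdhr1 was at 2082, 2286 and 2175 CPM in the 8-AG aged libraries, all above the 1807 to 2032 CPM of the aged ones. It was 1 of the 9 genes, and the only one, whose groups did not overlap here, where 4.57% of all genes were higher without overlap. It had a log2 fold change of 0.19 (SE 0.08, unadjusted p = 0.0382, adjusted p = 0.996). Reep6 was at 611, 626 and 776 CPM, with 2 of the 3 libraries inside the aged range of 521 to 629 CPM, and had a log2 fold change of 0.24 (SE 0.11, unadjusted p = 0.0482, adjusted p = 0.996), or 0.13 without 8-AG aged library 3.

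The remaining genes overlapped. Rom1 was at 813, 1007 and 1126 CPM after treatment (log2 fold change 0.21, SE 0.12), Rp1 at 2142, 3039 and 2966 CPM (0.24, SE 0.15) and Abca4 at 1040, 1227 and 1101 CPM (0.13, SE 0.09). Impg1 was at 279, 335 and 323 CPM (0.16, SE 0.09) and Prom1 at 413, 468 and 397 CPM (0.09, SE 0.08). Several of these estimates moved by over 1.5 times when one library was left out. Rom1 went to 0.33 without 8-AG aged library 1 and to 0.11 without 8-AG aged library 3. Rp1 went to 0.39 without 8-AG aged library 1, 0.16 without 8-AG aged library 2 and 0.15 without aged library 2. Prom1 went to 0.02 without 8-AG aged library 2 and 0.15 without 8-AG aged library 3, and Abca4 to 0.07 without 8-AG aged library 2 or aged library 1. All kept their sign. For 8 of the 9 genes, all but Prom1, 8-AG aged library 1 was the lowest of the 3 treated libraries. It was also the one with the lowest rod sum (35730 CPM) and the highest RPE (348 CPM) and lens (1698 CPM) sums, whose part was not tested.

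Tulp1 was at 478, 532 and 602 CPM against 513 to 574 CPM in aged retina, and the group means were both 537 CPM (log2 fold change 0.00, SE 0.09). Its sign turned under several alternatives, with -0.05 without TMM factors and -0.08 to 0.08 with one library left out. Fscn2 was at 83.2, 101 and 94.0 CPM, between the young and aged means, with a log2 fold change of -0.24 (SE 0.12, unadjusted p = 0.0804, adjusted p = 0.996), or -0.12 without aged library 2.

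In 8-AG aged compared with young retina, 7 of the 9 genes were called. The 6 that were lower are Reep6 (log2 fold change -0.93), Rom1 (-0.58), Tulp1 (-0.39), Cdhr1 (-0.38), Impg1 (-0.27) and Abca4 (-0.26), and Fscn2 was higher (0.70, SE 0.08, adjusted p = 0.00053, edgeR). Abca4 (adjusted p = 0.0476) and Impg1 (adjusted p = 0.0388) passed narrowly in edgeR and missed the threshold in 11 and 8 of the alternative fits, where the adjusted p reached 0.226 and 0.269. Tulp1 missed it in 3 and Rom1 and Cdhr1 in 1 each, while Reep6 and Fscn2 passed in all. All genes tested numbered 14542, of which 7.1% were lower and 7.78% higher. Rp1 was at -0.42 (SE 0.12) with an adjusted p of 0.0579 in edgeR and 0.0024 in DESeq2, which called 8 of the 9. DESeq2 called 1986 of all 21001 genes in this comparison. Prom1 was at -0.16 (SE 0.08, adjusted p = 0.204). The median over the 9 genes was -0.38 against 0.00 over all genes.

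By the same fold rule, applied to this fit, 2 genes were changed, Reep6 lower (2.08% of all genes) and Fscn2 higher (6.5%). Without TMM factors, 71.4% of all called genes were higher, where TMM gave 52.3%. Without young library 2, 4 of the 9 genes were called, and with young library 3 as the only young one, 2. In this last fit the median was -0.39, the lost genes had log2 fold changes of -0.31 (Impg1) to -0.50 (Rom1), and 8 of the 9 genes had an unadjusted p under 0.05, as many as with all libraries. The retina comparisons share libraries (the young ones in both comparisons with young retina, the aged ones in aged against young and 8-AG aged against aged), so their values are set side by side with no test of their likeness.

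**Figure D3:**
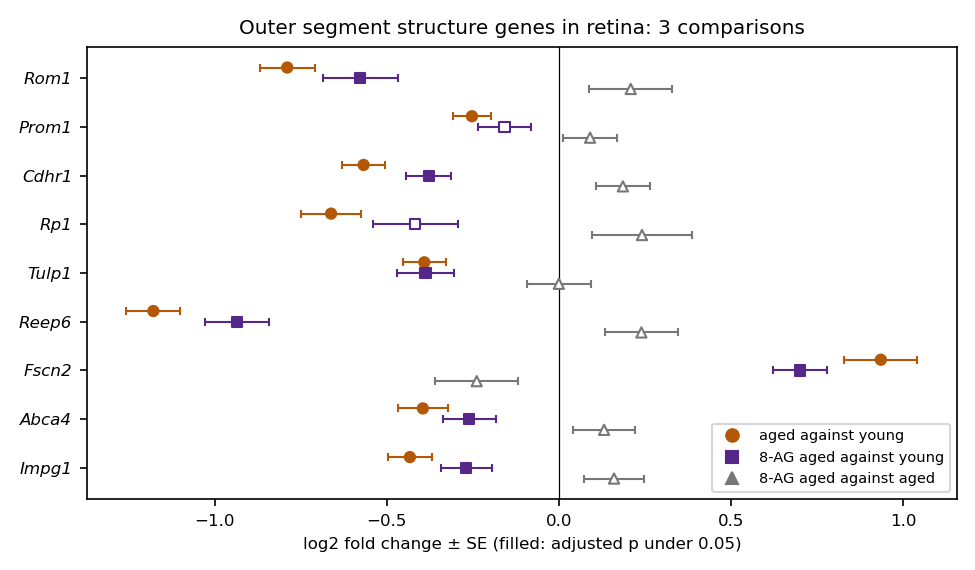
Log2 fold change ± SE (x axis) of the 9 genes in the 3 retina comparisons, with filled symbols for an adjusted p under 0.05. Circles for aged against young run from -1.18 (Reep6) to 0.94 (Fscn2), and the triangles for 8-AG aged against aged are all open.

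The pattern of the 9 genes was compared with every other gene over the 9 retina libraries, as the root mean square difference between centred log2 CPM and the mean of the 9 genes. Of 8568 genes with a mean log2 CPM of at least 4, the nearest were Pde6a (0.03), the catalytic alpha subunit of the rod phosphodiesterase, Got1 (0.04), LOC100360316 (0.04), Slc25a33 (0.04) and Aipl1 (0.05), a chaperone of that phosphodiesterase. Pde6a averaged 4639 CPM in young, 3531 CPM in aged and 3872 CPM in 8-AG aged retina. Among the 9 genes, Impg1 followed their own mean most closely (0.04) and Abca4 next (0.06), while Reep6 (0.35) and Fscn2 (0.58) stood farthest from it. Points share libraries, so this describes likeness only.

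Beyond the 9 genes, 34 other genes of the outer segment and its cilium were listed by role, of which 31 were found. In aged compared with young retina 11 of the 31 fell and 0 rose, in edgeR, and their median log2 fold change was -0.26. Of all genes, 7.26% were called lower and 7.29% higher. At an unadjusted p under 0.05 there were 17 lower and 0 higher, beside 14.4% and 14.9% of all genes. By role, 1 of 3 genes of matrix and disc, 3 of 12 of the connecting cilium and 3 of 9 in transport were lower. So were 2 of 4 in the handling of lipid-anchored proteins and 2 of 3 in adhesion.

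Of the genes called and named, the largest decrease was that of Cc2d2a, a protein of the ciliary transition zone, from a mean of 241 to 130 CPM (log2 fold change -0.88, SE 0.18, adjusted p = 0.0314). Rp1l1, a relative of Rp1 on the same axoneme, went from 560 to 372 CPM (-0.59, SE 0.08), close to the -0.66 of Rp1. Neither overlapped between groups.

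Smaller decreases were those of Bbs4 (-0.43) and Bbs7 (-0.30), which encode subunits of the BBSome coat complex of ciliary transport, Unc119 (-0.41), a carrier of lipid-anchored proteins such as transducin, Lca5 (-0.36), a ciliary protein, and Crb1 (-0.30), which acts in adhesion at the outer limiting membrane. The count of 11 went to 5 without young library 3, to 6 without young library 2 and to 7 without aged library 3. With young library 3 as the only young one it was 3, while 13 of the 31 had an unadjusted p under 0.05 against 17 with all libraries.

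In 8-AG aged compared with aged retina 0 of the 31 genes were called in edgeR, while 1 was lower and 1 higher at an unadjusted p under 0.05. Their median log2 fold change was -0.01. DESeq2 called 0 of them. Against young retina 7 were lower in the treated group and 0 higher, with a median of -0.23, where 7.1% and 7.78% of all genes were. At an unadjusted p under 0.05 there were 15 lower and 1 higher, beside 14.4% and 14.7% of all genes. The 7 called include Cc2d2a (-1.08), Rpgrip1 (-0.64), Pcdh15 (-0.61), Rp1l1 (-0.52), Ift172 (-0.41) and Atp8a2 (-0.34). Rpgrip1 anchors the GTPase regulator Rpgr in the connecting cilium, and Pcdh15 is a protocadherin, listed here under adhesion. Ift172 belongs to the intraflagellar transport machinery and Atp8a2 is a disc-membrane phospholipid flippase. Without 8-AG aged library 3 the count was 15, in a fit for which the share of all genes is not given. With young library 3 as the only young one it was 4, with 10 at an unadjusted p under 0.05 against 16 with all libraries.

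**Figure D4:**
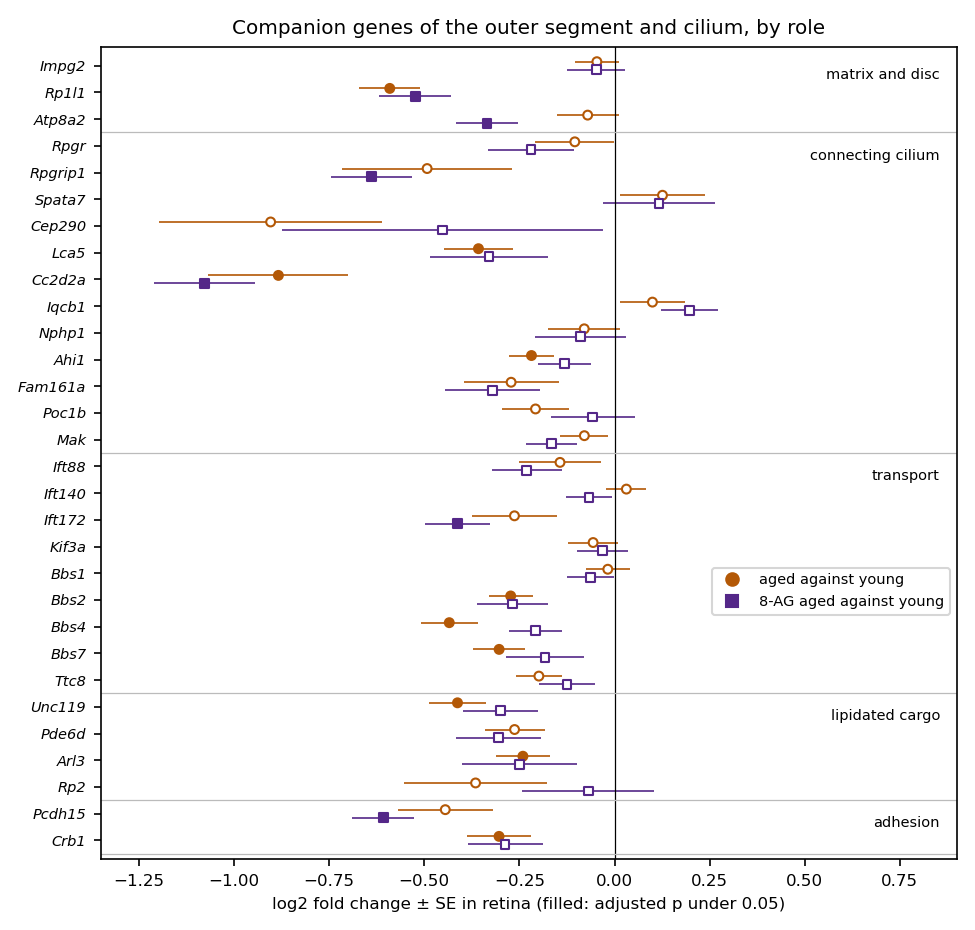
Log2 fold change ± SE (x axis) of 30 of the 31 genes found, grouped by role, in aged against young retina (circles) and 8-AG aged against young retina (squares), with filled symbols for an adjusted p under 0.05. All filled symbols, 10 circles and 6 squares, lie left of 0.

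In RPE/choroid, where the cells that engulf outer segments are but photoreceptors should be scarce, all 9 genes were measured in every library, and their levels differed mostly from library to library. Rom1 was at 605, 648 and 76.9 CPM in the young libraries, 415, 28.8 and 549 CPM in the aged libraries and 1841, 39.6 and 43.7 CPM in the 8-AG aged libraries. Each group thus held high and low libraries, and the ranges overlapped throughout.

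The same libraries were high and low for the rod list, which summed to 17680, 19600 and 1979 CPM in the young, 11390, 603 and 16500 CPM in the aged and 54230, 888 and 861 CPM in the 8-AG aged libraries. 8-AG aged library 1 was the highest of the 9 libraries for each of the 9 genes. It also had the lowest RPE marker sum, 5294 CPM against 9228 to 19130 CPM in the other 8, and the lowest endothelial sum, 506 CPM against 2329 to 5159 CPM. From the lowest to the highest library the factor was 30.9 for Prom1, 63.8 for Rom1, 169 for Impg1 and 89.9 for the rod list, where in retina the 9 genes spanned factors of 1.28 (Prom1) to 2.6 (Reep6).

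Young libraries 1 and 2 carry one label number with a left and a right mark, as do aged libraries 1 and 2, and whether these are the eyes of one rat is not stated. The young pair was alike, with Cdhr1 at 364 and 369 CPM, whereas the aged pair was not, with Cdhr1 at 211 and 14.1 CPM.

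None of the 9 genes was called in any RPE/choroid comparison, in edgeR or in DESeq2, and none had an unadjusted p under 0.05. In aged against young tissue 0% of 16047 genes were called and 2.13% had an unadjusted p under 0.05, in 8-AG aged against aged tissue 0% of 16257 and 1.69%, and in 8-AG aged against young tissue 0% of 16215 and 2.1%. DESeq2 called 29, 81 and 98 genes in that order, none of the 9, and gave an adjusted p to 9, 7 and 3 of them. The 31 other outer segment and cilium genes also gave 0 calls each time in edgeR, and 0 at an unadjusted p under 0.05.

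The standard errors show how little these libraries could resolve. Rom1 had a log2 fold change of -0.42 (SE 1.14) in aged against young tissue, 1.03 (SE 1.77) in 8-AG aged against aged tissue and 0.57 (SE 1.67) in 8-AG aged against young tissue. The median over the 9 genes was -0.42, 1.03 and 0.58. With 8-AG aged library 1 left out, the last 2 medians turned to -3.001 and -3.36. With the replicate number as a block they were 0.04 and -0.94. The median of aged against young tissue ran from -0.98 without aged library 3 to 0.13 without aged library 2, was 0.05 without young library 1, and turned to 0.16 with libraries of one label number summed. None of the 3 medians thus kept its sign in all of the fits.

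**Figure D5:**
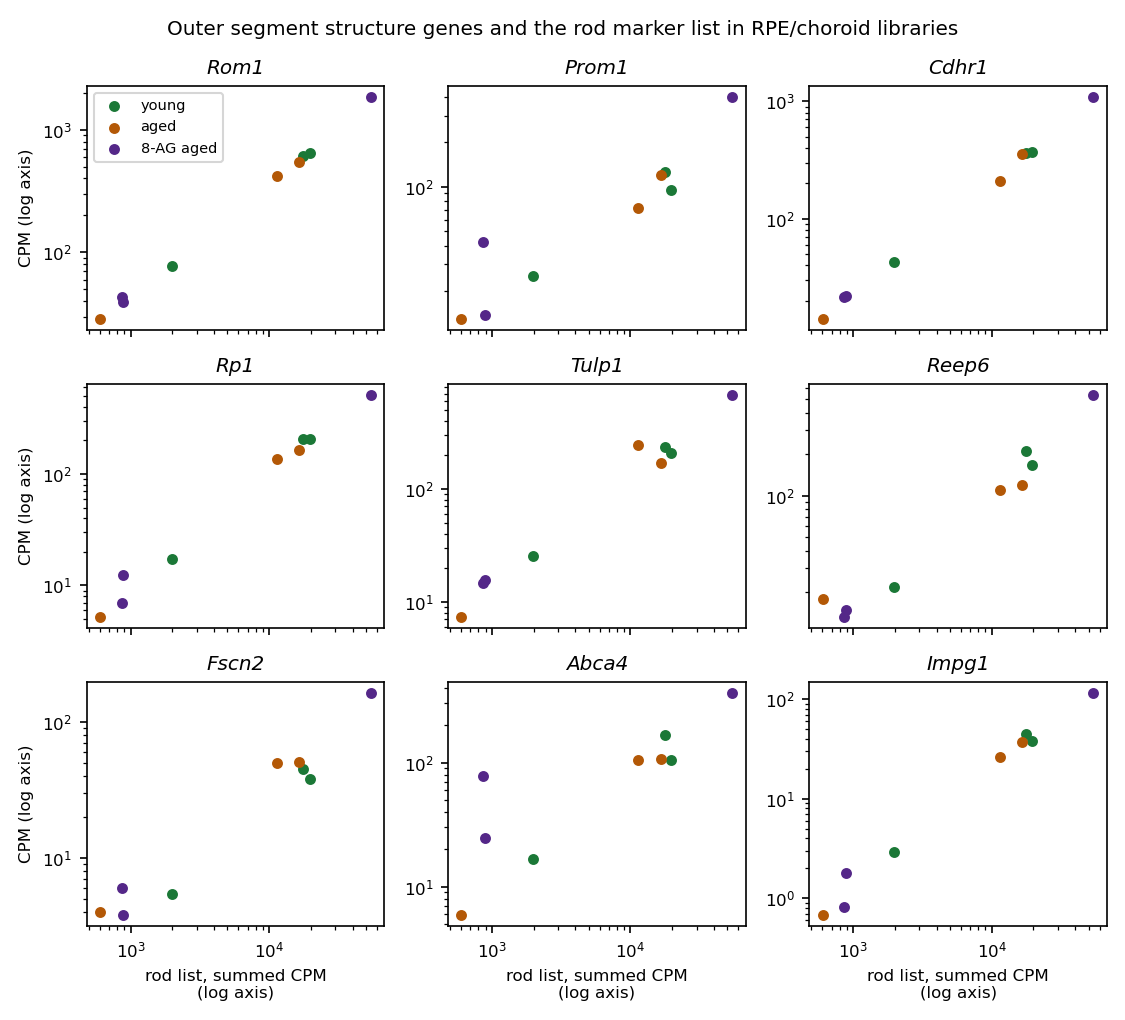
CPM of each of the 9 genes (y axes, log scale) against the summed CPM of the 13-gene rod list (x axis, log scale) in the 9 RPE/choroid libraries, coloured by group. Points mostly rise together, with 8-AG aged library 1 at the top right of every panel. Their order is not the same throughout. The rod list was lowest in aged library 2, but Reep6 was lowest in 8-AG aged library 3 and Fscn2 in 8-AG aged library 2. Prom1 and Abca4 have an 8-AG aged point high above the others at a rod sum of 861 CPM.

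Per 1000 rod CPM, most of the 9 genes were far steadier across RPE/choroid libraries than their levels. Rom1 ran from 33.1 to 50.7, Cdhr1 from 18.5 to 25.0, Rp1 from 8.07 to 14.1 and Tulp1 from 10.4 to 21.5. Impg1, the gene with the widest range of levels, ran from 0.942 to 2.52.

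Fscn2 was again lowest in the young libraries on this scale. It was at 2.54, 1.94 and 2.76 per 1000 rod CPM in the young RPE/choroid libraries, 4.42, 6.61 and 3.06 in the aged and 3.00, 4.29 and 7.00 in the 8-AG aged libraries. All aged and all treated libraries were above all young ones. This was so for 1 of the 9 genes in both comparisons, beside 3.23% of all genes for the aged and 1.94% for the treated libraries. With 3 libraries against 3 an exact permutation test cannot go below p = 0.1, two-sided, and no test of this ratio was made. On the plain CPM scale Fscn2 overlapped between the groups.

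Reep6 per 1000 rod CPM was 8.60 to 11.9 in young and 7.26 to 29.6 in aged RPE/choroid, so the separation seen in retina was not present there. Abca4 and Prom1 followed the rod list less closely. Abca4 was at 5.39 to 9.45 per 1000 rod CPM in young and 6.48 to 9.80 in aged libraries, but at 6.68, 27.9 and 90.5 in 8-AG aged libraries 1 to 3. Prom1 was at 4.87 to 12.6 in young libraries, 6.31 to 21.5 in aged libraries and 7.37, 15.5 and 49.2 in 8-AG aged libraries. In library 3 of the treated group this amounted to 77.9 CPM of Abca4 and 42.4 CPM of Prom1, where Rom1 was at 43.7 CPM. That library also held bipolar markers at a summed 281 CPM and Müller glia markers at 3345 CPM. Young library 3, aged library 2 and 8-AG aged library 2, also low in rod transcripts, held 71.3 to 85.0 and 1679 to 1840 CPM. Its RPE marker sum, 19130 CPM, was the highest of all. What part this has was not tested. The treated groups overlapped the untreated ones for both genes.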

How the data were processed

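Retina files hold expected counts per gene that the authors deposited, estimated from reads and not normalized. RPE/choroid files hold raw read counts per gene that the authors deposited. A deposited table of TMM-normalized signal for retina served to pair symbols with identifiers. The submitters' processing notes name Bowtie2 2.1.0, RSEM 1.2.15, edgeR and the build Rnor_6.0 without giving their roles. Tables of the authors' own comparisons hold fold changes and p-values and were not used, except for gene names.

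Expected counts were rounded. For every comparison, edgeR 4.0.16 under R 4.3.3 was run on the 6 libraries of its 2 groups alone (filterByExpr, TMM, estimateDisp, robust glmQLFit, glmQLFTest), with Benjamini-Hochberg adjustment over all genes tested, and a gene was called at an adjusted p under 0.05. The SE is the absolute log2 fold change divided by the square root of F. The study's rule of a fold over 1.5 with P under 0.05, taken as unadjusted and applied to these fits, was an alternative. Other alternatives were RLE factors, DESeq2 1.42.0, 2 other filters, all 3 groups in one fit, robust=FALSE, unrounded counts, a replicate block, libraries of one label number summed and each library left out in turn. Added after the data were seen were no scaling factors and young retina libraries 1 and 2 left out together. The fits were tested on simulated data. Tissues were not fitted together.

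The genes, the list of 34 others and the marker lists were chosen with earlier results of these data known. Of the 34, genes were named that were called without overlap, at most 8 per comparison by size of the log2 fold change, and 5 genes nearest in pattern. Not every gene that qualified is reported here. Intervals and p-values cover libraries only. Tables were made with Python 3.11.15 and pandas 2.3.3, and figures with matplotlib 3.10.9.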

Additional observations from a re-analysis of the deposited data

How the results depend on the processing

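In retina, the 9 genes called in aged against young went to 4 under the fold rule and to between 8 and 9 with one library left out. The 11 other outer segment and cilium genes called there became 6 with all 3 groups in one fit and 5 without scaling factors. They became 4 under the fold rule and 5 to 11 with one library left out. With young library 3 as the only young one, the median over the 9 genes went from -0.43 to -0.47 in aged against young. In 8-AG aged against young it went from -0.38 to -0.39. In the latter comparison, the 7 genes called became 2 under the fold rule and 4 to 6 with one library left out. The 7 others called became 4 and 5 to 15 in the same order. Shares of all genes are not given for the fits with a library left out. In 8-AG aged against aged, the log2 fold change of Tulp1, 0.0004, became -0.0002 without a filter, -0.0043 with the replicate block, -0.0452 without scaling factors and -0.0830 to 0.0777 with one library left out. In RPE/choroid every setting gave 0 calls among the 9 genes and the 31 others, but the spread between libraries is too wide for this to speak of stability.

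Replicate numbers were not taken to pair samples of different groups. In no comparison did the correlation of same-numbered deviations exceed 0.1 in every pair. It was -0.077 to 0.105 in aged against young retina and 0.039 to 0.082 in 8-AG aged against aged retina. The range was wider in 8-AG aged against young retina (-0.271 to 0.252) and over the RPE/choroid comparisons (-0.615 to 0.664). With the replicate block, 9, 0 and 7 of the 9 genes were called in the 3 retina comparisons, as without it, while all genes called went from 2122 to 1698, from 3 to 0 and from 2163 to 1932. Of the other values compared, 472 kept direction and call or, where they have no test, stayed within the spread between libraries, 30 lost their call, 3 gained one and 4 moved beyond the spread. Single genes were followed across settings in retina only, where the sign changes were 6, all Tulp1 in 8-AG aged against aged retina. In RPE/choroid only the counts and medians were followed, and some medians changed sign.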
